A study of Rattus norvegicus with 26 samples.

Results

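Undifferentiated cells of the rMAPC line Cl19 were compared with undifferentiated cells of the rMAPC line 3c3. rMAPCs are rat multipotent adult progenitor cells, cultured bone marrow cells that express Oct4 (gene symbol Pou5f1) and give rise to both endodermal and mesodermal progeny. The comparison uses all arrays labeled with a rMAPC line and Day 0, which are 3 of Cl19 and 3 of 3c3, or 6 of the 26 arrays of the series. Both lines were derived from bone marrow of female Fischer rats. The donor of Cl19 was 3 weeks old and that of 3c3 was at embryonic day 18. Day 0 (d0) is the culture before TGFβ1 and PDGF-BB were added to drive smooth muscle cell (SMC) differentiation, and the later days d2, d4 and d6 are used below only to follow the d0 differences. Each line is 1 clone, so that clone, donor age and every other property of the donor cannot be told apart. The 3 arrays of a line carry replicate numbers. The study's methods call them biological replicates without saying what was repeated. The p-values rest on the spread between replicate arrays within the groups of the series, not on a spread between clones.

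Each sample of Cy3-labeled RNA was hybridized to 1 Agilent whole rat genome array. Values are log2 intensities after quantile normalization over all 26 arrays, so 1 unit is a doubling, and a probe's level says nothing of its level against another probe. "Well above background" is the scanner software's own call for a feature. On the 6 arrays, 49.5% to 56.6% of the 43379 gene features had that call and none was saturated. Array 3c3 replicate 3 had the lowest share and a negative-control signal of 31.5, against 10.9 to 14 on the other 5. All Cl19 arrays were scanned on 1 day and all 3c3 arrays on another, on 6 different slides, so that line and scan day cannot be told apart. The 10 spike-in RNAs added to each sample were read before quantile normalization. All were higher on the Cl19 arrays, by 0.05 to 0.41 log2 units with a median of 0.10. The widest range of a spike-in over the 6 arrays was 1.59. One array that is not from d0 went against its label. The array labeled Cl19 d2 replicate 1 correlated at 0.995 with the mean of the 3c3 d2 arrays and at 0.983 with the other Cl19 d2 arrays. Its Cd81 level was 4.77, against 9.43 and 9.65 on the other Cl19 d2 arrays and 4.76 to 5.14 on the 3c3 d2 arrays. It is no part of the d0 means but enters the d0 test through the shared estimate of the spread, the quantile normalization and the filter on dim probes, and the counts without it are given beside the main ones.

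Oct4-expressing rMAPCs share much of their transcription with the primitive endoderm, the first extraembryonic endoderm of the mammalian embryo, which is specified by the transcription factors Gata6, Gata4, Sox17 and Sox7. Imprinted genes are expressed from only the maternal or only the paternal chromosome, and they lie in clusters that are controlled together through differences in DNA methylation. One such cluster holds the cyclin-dependent kinase inhibitor Cdkn1c (p57), which restrains the cell cycle and fetal and placental growth. Interferon response genes and the genes of class I antigen presentation are 2 further groups that cells switch as sets.

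Both lines carried the transcripts that name the cell type. Pou5f1 was 10.31, 10.31 and 10.22 in Cl19 and 11.47, 11.63 and 11.49 in 3c3. It was thus lower on every Cl19 array, by 1.25 ± 0.74 (SE) log2 units, but with limma's adjusted p at 0.682 the difference did not pass the test over all 26 arrays. The spread in that test includes the array labeled Cl19 d2 replicate 1, on which Pou5f1 was 8.77 against 4.58 and 4.59 on the other Cl19 d2 arrays. Without this array the adjusted p was 0.098, and in a fit of the 6 d0 arrays alone it was 0.0030. Gata4 was at 13.61 ± 0.08 (SD, n = 3) in Cl19 and 13.51 ± 0.05 in 3c3. Gata6 was at 13.23 ± 0.22 and 13.52 ± 0.16, and the PDGF receptor Pdgfra, which also marks this lineage, at 12.34 ± 0.07 and 12.25 ± 0.11. Sox17 differed by -0.10 ± 0.32 (SE). For these 4 genes the arrays of both lines overlapped. Sox7 was at 9.71 ± 0.04 in Cl19 and 10.04 ± 0.16 in 3c3, without overlap but with an adjusted p of 0.858. Sox2, a pluripotency factor that primitive endoderm lacks, was not well above background on any of the 6 arrays.

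Against this shared profile, a small share of probes differed. A probe was tested if all arrays of some group of the series had it well above background, as held for 24442. Of these, 488 (2.00%) were higher in Cl19 and 263 (1.08%) were lower at an adjusted p under 0.05, 751 (3.07%) in all. A fit with the replicate number as a block called 587 and 397. Without the array labeled Cl19 d2 replicate 1, 634 and 378 probes were called, and these included every one of the 488 and of the 263. Leaving out 1 of the 6 arrays gave 249 to 368 and 115 to 178 calls, with the lowest counts without Cl19 replicate 3 and without Cl19 replicate 2. The calls were mostly large: 404 of the 488 and 203 of the 263 differed at least 2-fold, and 46 and 5 at least 8-fold. The median size among the called probes was 3.19-fold for those higher in Cl19 and 2.67-fold for those lower. Over all probes tested, the median difference was -0.03 log2 units and the median absolute difference 0.18, with 99% of probes under 2.10. On 19406 probes well above background on all 6 arrays, 332 (1.71%) were called higher and 196 (1.01%) lower. The 2 lines did not overlap on 2809 probes with every Cl19 array above every 3c3 array (11.5%) and on 2993 with every Cl19 array below (12.2%). No chromosome was shifted as a whole, since the medians ran from -0.05 on chromosome 18 to -0.01 on chromosome 8.

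**Figure D1:**
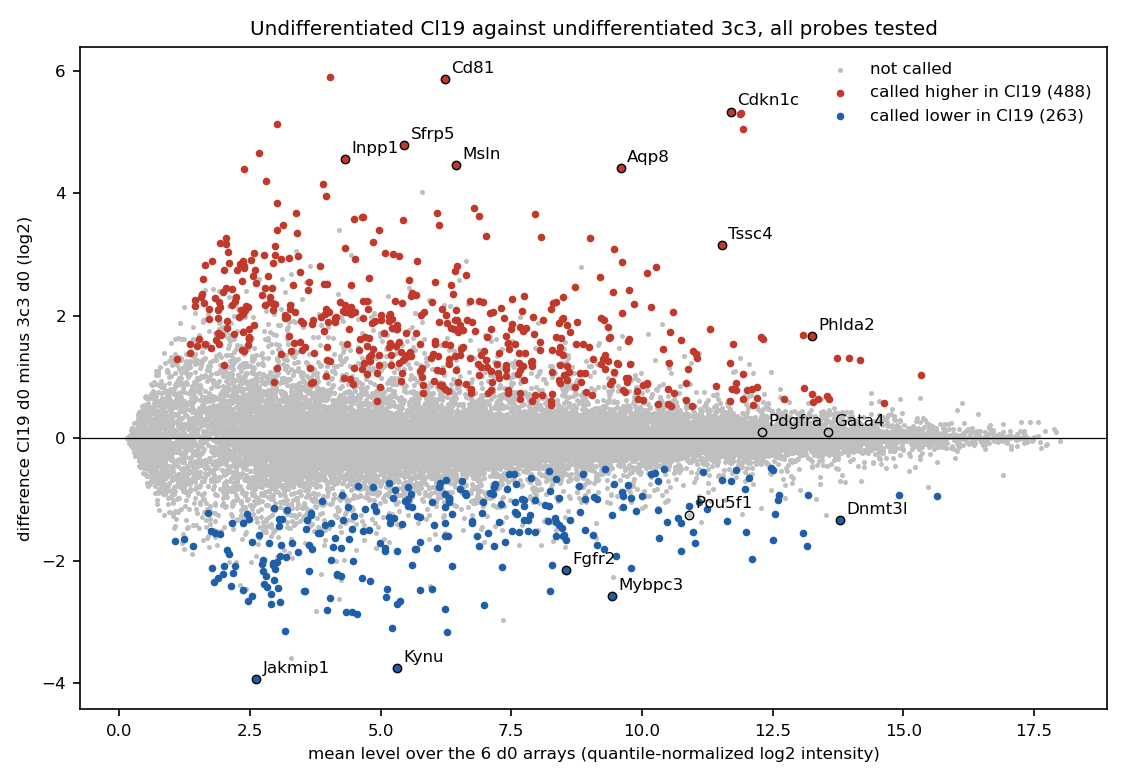
Difference between the lines on d0 (y axis, mean log2 Cl19 minus mean log2 3c3) against the mean log2 level over the 6 arrays (x axis), with each of the 24442 tested probes as a point. Probes called higher are red and those called lower blue, and the 4 Cdkn1c probes and Cd81 lie above 5 log2 units while most probes lie near 0.

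Where a gene had several probes, they mostly moved together. Of 2403 genes with several probes well above background on all 6 arrays, 84 had a called probe. All probes had the same sign for 82 of the 84 and were called the same way for 42, and no gene had probes called in opposite directions. Probes of 2 genes lay over 2 log2 units apart, at -0.61 and 3.20 for Lamb3, a laminin chain, and at 0.15 and 2.98 for Pycard, the adaptor protein of inflammasomes. Lamb3 had 3 other tested probes, from -0.61 to 3.61, of which 1 was also called higher in Cl19. Values of Lamb3 below belong to the probe at 3.20.

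The 12 genes per direction with the largest differences came from called probes well above background on all 6 arrays. Their arrays also had to be separate between the lines, so separation and the adjusted p were conditions of the choice. Among these genes, kynureninase (Kynu) stood first by size of those lower in Cl19 and Cdkn1c first of those higher. Its probe at chr1:203835341-203835400 of the rat assembly rn4 was 13.95, 14.42 and 14.72 in Cl19 and 9.29, 9.11 and 8.71 in 3c3, a difference of 5.33 ± 0.63 (SE) or 40.3-fold (adjusted p = 8.09e-05). The other 3 Cdkn1c probes gave 5.05, 5.30 and 5.31. The lowest Cl19 value of each probe was more than 4 log2 units above its highest 3c3 value.

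The 2 next genes encode proteins of epithelial surfaces. Msln, mesothelin, a cell surface glycoprotein of the mesothelium, was 8.85, 8.46 and 8.69 in Cl19 and 5.06, 3.99 and 3.61 in 3c3 (difference 4.45 ± 0.83, adjusted p = 0.00367). Aqp8, a water channel, was 11.50, 12.03 and 11.85 against 7.71, 7.34 and 7.11 (4.41 ± 0.58, adjusted p = 0.000217). In both, every Cl19 array lay over 3 units above every 3c3 array.

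The 8 described next were 3.20 to 3.75 log2 units higher, or 9.19- to 13.5-fold. They were the calcium-binding protein S100a16 (3.75), the chloride channel protein Clic3 (3.68), the carboxypeptidase inhibitor latexin (Lxn, 3.66), neuropeptide Y (Npy, 3.62), the galectin Lgals2 (3.56), Cadps, a regulator of dense-core vesicle release (3.30), pepsinogen 5 (Pga5, 3.26) and Lamb3 (3.20). A second Lgals2 probe differed by 1.17 and was not called. Lxn lost its call without the slide of 3c3 replicate 3 (4 arrays, 1 of them from d0), Lgals2 lost it with the normexp background correction, and Lamb3 lost it when Cl19 replicate 1, 2 or 3, 3c3 replicate 2 or 3 or that slide was left out.

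In the other direction the differences were smaller. Kynu, kynureninase, an enzyme of tryptophan breakdown, was 3.90, 3.25 and 3.18 in Cl19 and 7.90, 6.82 and 6.88 in 3c3, a difference of -3.75 ± 0.53 (adjusted p = 0.000334). The motilin receptor gene Mlnr was 3.83, 3.37 and 3.79 against 7.21, 6.38 and 6.67 (-3.09 ± 0.45, adjusted p = 0.000496). Kcnj5, an inward rectifier potassium channel, was 4.2, 4.08 and 3.58 against 6.72, 6.59 and 6.67 (-2.70 ± 0.27, adjusted p = 2.14e-05). The arrays of the lines were separate in all 3, as the choice of genes required.

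The others ran from -2.87 to -2.25. They were Prkag2, a regulatory subunit of the energy-sensing kinase AMPK (-2.87), the protease inhibitor Serpine2 (-2.79), the membrane protein Tmem59l (-2.72), the prostaglandin transporter Slco2a1 (-2.67), the serine protease Klk8 (-2.60), cardiac myosin-binding protein C (Mybpc3, -2.58), the salt-inducible kinase Sik1 (-2.49), the RNA-binding protein Khdrbs3 (-2.48) and the serine protease Prss38 (-2.25). Of these, Mybpc3 is a protein of the heart sarcomere and was 8.13 ± 0.39 in Cl19 and 10.71 ± 0.17 in 3c3. The second Serpine2 probe gave -2.81 and the second Prkag2 probe -3.15. The Klk8 call was lost without any 1 of the 6 arrays. That of Prss38 was lost without Cl19 replicate 2 or 3 or 3c3 replicate 1 or 3. Khdrbs3 lost its call without the slide of 3c3 replicate 3.

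**Figure D2:**
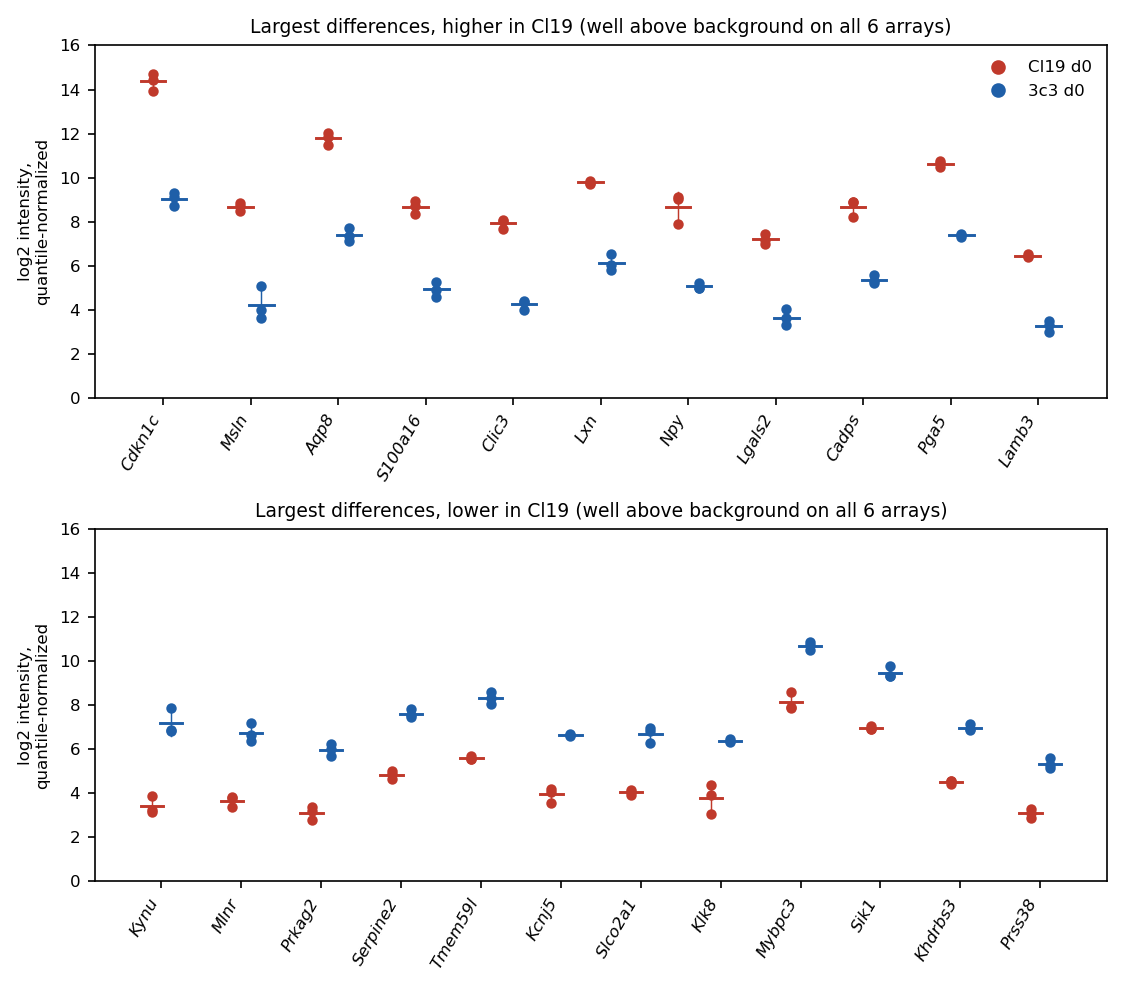
Log2 level on each of the 6 d0 arrays (y axis, quantile-normalized) for the genes described here as having the largest differences among probes well above background on all 6 arrays (x axis, in order of the difference, 11 higher and 12 lower in Cl19). Each point is 1 array, and bars are the mean ± SD (n = 3). The red Cl19 points and blue 3c3 points do not overlap for any gene shown, which was a condition of the choice.

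Cdkn1c lies in an imprinted cluster, and its neighbours were therefore examined by position. Within 1000 kb on either side of it, the array had 38 probes and 19 genes with a symbol. All 4 Cdkn1c probes, around which the window was set, were called. Of the 17 other probes tested there, 4 were called higher in Cl19 and 0 lower, while 2.00% and 1.08% of all probes were. At limma's unadjusted p under 0.05, 5 of the 17 were higher and 1 was lower, and after adjustment 3 and 0 were called by the methods' t-test, a plain 2-sample test that the study names for its comparisons in general and not for the arrays. The 4 were 1 probe each of Cd81, Tssc4, Slc22a18 and Phlda2. The 250 bases before the annotated start of 4 of these neighbours are shown with each CG dinucleotide, the unit of DNA methylation, in capitals. They come from RefSeq on the assembly GRCr8, 5′ to 3′ on the strand of the gene, at chr1:207665047-207665296, plus strand for Cd81, chr1:207682295-207682544, plus strand for Tssc4, chr1:208100923-208101172, plus strand for Slc22a18 and chr1:208127242-208127491, minus strand for Phlda2.
Cd81: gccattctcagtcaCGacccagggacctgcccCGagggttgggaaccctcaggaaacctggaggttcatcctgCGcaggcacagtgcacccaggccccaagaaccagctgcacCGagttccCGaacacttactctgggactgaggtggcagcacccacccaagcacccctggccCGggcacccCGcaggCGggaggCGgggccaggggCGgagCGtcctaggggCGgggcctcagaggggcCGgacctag
Tssc4: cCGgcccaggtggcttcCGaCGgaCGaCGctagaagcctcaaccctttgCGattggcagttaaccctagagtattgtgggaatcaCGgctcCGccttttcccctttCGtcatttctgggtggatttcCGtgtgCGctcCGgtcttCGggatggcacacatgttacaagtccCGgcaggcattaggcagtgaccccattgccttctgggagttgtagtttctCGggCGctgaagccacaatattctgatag
Slc22a18: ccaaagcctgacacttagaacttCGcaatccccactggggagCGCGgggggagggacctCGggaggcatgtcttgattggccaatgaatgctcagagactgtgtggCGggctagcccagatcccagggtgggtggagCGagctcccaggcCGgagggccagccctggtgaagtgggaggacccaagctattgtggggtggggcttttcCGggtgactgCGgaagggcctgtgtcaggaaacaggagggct
Phlda2: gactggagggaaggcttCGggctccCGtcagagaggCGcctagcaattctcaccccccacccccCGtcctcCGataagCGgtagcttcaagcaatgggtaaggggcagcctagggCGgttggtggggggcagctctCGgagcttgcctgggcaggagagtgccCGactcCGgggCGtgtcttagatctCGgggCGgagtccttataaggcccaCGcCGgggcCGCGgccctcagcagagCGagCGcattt
These stretches hold 13, 16, 9 and 19 CG, against a median of 5 over 33469 promoters. At least as many were found in 29.4%, 23.8%, 38.5% and 18.4% of all promoters, so such counts are common. Methylation was not measured.

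Cd81 encodes a tetraspanin, a membrane protein that organizes other surface proteins. Its probe at chr1:203341891-203342343 (rn4, a span longer than its 60 bases), 494 kb from Cdkn1c, was 8.89, 9.21 and 9.38 in Cl19 and 2.66, 3.67 and 3.57 in 3c3. The difference was 5.86 ± 0.80 or 58.0-fold (adjusted p = 0.000258). All Cl19 arrays but only 2 of 3 arrays of 3c3 were well above background, and with the normexp background correction the difference was 3.02, still past the threshold. Tssc4, which encodes a protein of the RNA splicing machinery, lies beside Cd81 at 489.6 kb from Cdkn1c. It was 13, 13.09 and 13.24 against 10.57, 9.59 and 9.71, or 3.15 ± 0.68 higher (adjusted p = 0.0112). Its call was lost without Cl19 replicate 3, 3c3 replicate 2 or 3c3 replicate 3 (adjusted p = 0.054, 0.056 and 0.056).

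On the other side, Slc22a18, a transporter gene 39 kb away, was 8.5, 8.46 and 8.53 in Cl19 and 7.60, 6.95 and 7.21 in 3c3 (1.24 ± 0.21, adjusted p = 0.00137). Phlda2, a growth-restraining gene of the placenta at 43 kb, was 14.12, 14.03 and 14.13 against 12.47, 12.40 and 12.43 (1.67 ± 0.27, adjusted p = 0.0011). All arrays were separate. A tested probe without a gene symbol at 36 kb, between Cdkn1c and Slc22a18, differed by 0.46, overlapped and was not called. Nap1l4, a histone chaperone gene next to Phlda2, was 10.32 ± 0.10 in Cl19 and 10.64 ± 0.09 in 3c3 and was not called (-0.32 ± 0.14, adjusted p = 0.399). Further out, Cars1 differed by -0.16, Osbpl5 by 0.00, Nadsyn1 by 0.01 and Dhcr7 by 0.32, and none was called.

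Between and beyond the called genes, Ascl2, a trophoblast transcription factor, was 3.42, 3.42 and 4.05 in Cl19 and 3.29, 0.18 and 0.20 in 3c3, where only 1 array was well above background (2.40 ± 1.04, adjusted p = 0.369). Igf2, the growth factor gene on the Cd81 side, was 4.79 ± 0.10 against 4.01 ± 0.16 (adjusted p = 0.966). Kcnq1, Ins2, Th and Trpm5 were on the array and did not reach the level for a test. Kcnq1 and Trpm5 lie between Tssc4 and Cdkn1c, a stretch where no probe was tested. The neighbours discussed here were chosen by position after the Cdkn1c values had been seen.

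**Figure D3:**
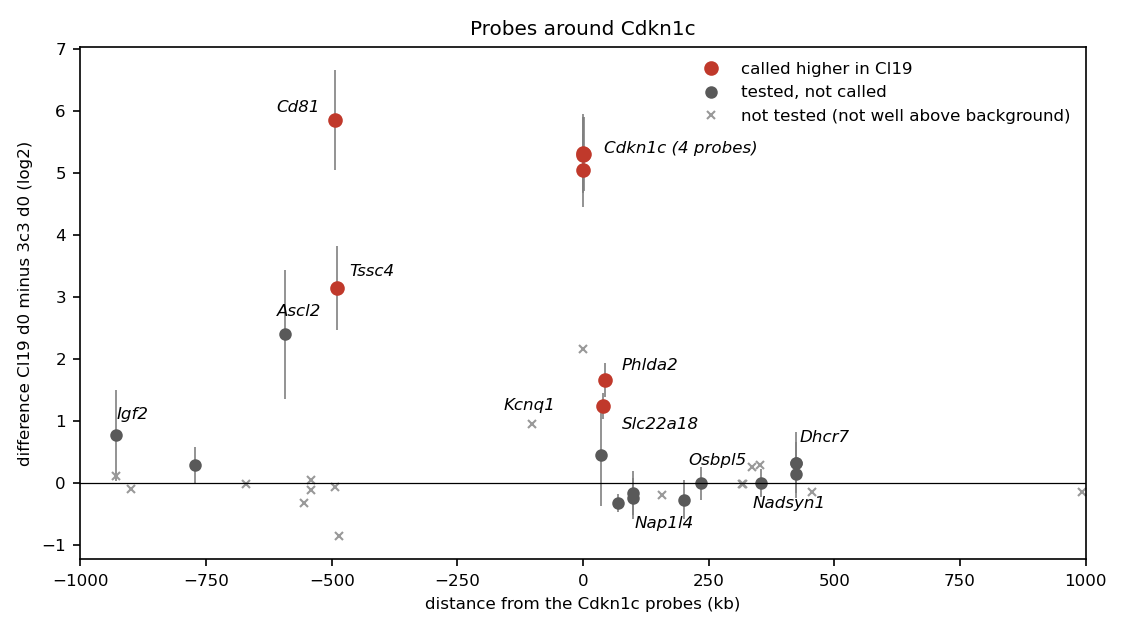
Difference on d0 (y axis, log2 Cl19 minus 3c3, bars ± SE of the fit) of the probes within 1000 kb of Cdkn1c against their distance from it (x axis, kb). Red points were called, grey points were tested and not called, and crosses were not tested, having no group of arrays all well above background. The called probes of Cd81, Tssc4, Cdkn1c, Slc22a18 and Phlda2 lie above 1, and those at Nap1l4 and on its far side lie within 0.4 of 0 and were not called. On the Cd81 side the uncalled probes of Ascl2 and Igf2 lie at 2.40 and 0.77 and 1 without a gene symbol at 0.29. Another uncalled probe without a symbol, between Cdkn1c and Slc22a18, lies at 0.46.

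Imprinted genes of the whole genome, those of the Cdkn1c cluster included, did not move as 1 block. Of 32 imprinted genes tested, 5 were higher and 2 lower, with a median of 0.09, beside 330 higher (2.69%) and 157 lower (1.28%) of 12267 genes measured by their brightest probe, with a median of -0.03. Besides Cdkn1c, Cd81, Slc22a18 and Phlda2, the fifth was Igf2r, the receptor that clears Igf2, on chromosome 1 outside that cluster. It was 10.89, 11.03 and 11.13 in Cl19 and 8.19, 7.65 and 7.94 in 3c3, without overlap (3.09 ± 0.53, adjusted p = 0.00186). The 2 lower ones were Impact, a regulator of translation, which was -1.21 ± 0.32 lower, and Snrpn, a splicing protein gene, at -1.11 ± 0.24. Impact lost its call without any 1 of the 6 arrays, and Snrpn without Cl19 replicate 2 or 3c3 replicate 1.

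Some probes were measurable in 1 line alone. There were 193 probes (0.790%) well above background on all Cl19 arrays and on no 3c3 array, of which 76 (39.4%) passed the test. The reverse held for 33 probes (0.135%), of which 22 (66.7%) passed. The detection calls and the tested difference come from the same d0 arrays, and a probe could enter the test through its bright line alone. Passing is thus no separate support, and the adjusted p of such a probe rests in part on values that were not well above background. Since a dim probe gives only an upper limit, such differences are given as a bound, from the mean of the bright line to the lowest signal that counted as well above background on the other line's arrays, or to the probe's own signal there if that was higher. Without array 3c3 replicate 3, which had the higher background, 85 probes were found in 3c3 alone. The counts for Cl19 alone were 313 without Cl19 replicate 1, 307 without 3c3 replicate 1 and 382 without 3c3 replicate 2, and the count for 3c3 alone was 73 without Cl19 replicate 3.

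Among the 12 named genes found in Cl19 alone, the bounds ran from 3.69- to 15.2-fold. Inpp1, an inositol phosphate phosphatase, was 6.28, 6.57 and 6.93 in Cl19, at least 15.2-fold above 3c3 (adjusted p = 0.00905). Lhx1, a LIM homeobox factor of the early endoderm and mesoderm, was 6.11, 6.02 and 5.80, at least 9.90-fold above 3c3 (adjusted p = 0.0031). Rab17, a small GTPase of polarized epithelial cells, was 4.81, 5.22 and 4.96 in Cl19, at least 5.01-fold above 3c3 (adjusted p = 0.000115). No 3c3 array was well above background for these 3.

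Of the others, Vil1, Cobl and Zfp185 encode proteins linked to actin, a grouping made after the genes were seen and not counted over all genes. Vil1, villin, which bundles actin in microvilli, was 4.26, 4.74 and 4.67 in Cl19, at least 3.69-fold above 3c3, and Cobl, an actin nucleator, was at least 4.12-fold above 3c3. Zfp185, an actin-associated LIM protein, was at least 4.38-fold higher in Cl19. The secreted protease Pappa, which releases insulin-like growth factors from a binding protein, was at least 5.36-fold higher in Cl19, and its second probe moved the same way by 2.39 log2 units. The rest were Luzp4 (at least 7.46-fold), Sez6 (4.80), the annexin Anxa8 (4.56), the ADP-ribosyltransferase family member Parp9 (4.29) and the potassium channel subunit Kcne1 (4.15). The Vil1 call was lost without 3c3 replicate 3, without its slide and with a floor on dim values. The Lhx1 call was lost without that slide, and the Zfp185 call without it or with the floor.

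In 3c3 alone, the bounds of the 12 genes ran from 2.57- to 5.21-fold. Prkag2 led, through a probe separate from the one above, which was 4.90, 4.71 and 4.61 in 3c3 and 1.48, 1.44 and 1.86 in Cl19 (at least 5.21-fold, adjusted p = 0.000124). Both Prkag2 probes were called. Tnfsf9, a ligand that costimulates T cells, was 4.22, 4.58 and 4.45 in 3c3 and at least 4.16-fold lower in Cl19 (adjusted p = 0.000955). Tlr2, a receptor for bacterial lipoproteins, was 3.81, 3.94 and 3.60 in 3c3 and at least 2.69-fold lower in Cl19 (adjusted p = 0.0202).

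The others included RT1-Db1, a class II antigen-presenting chain (at least 3.15-fold), the glycogen synthase Gys2 (2.98), the serotonin receptor Htr1d (3.21), the microtubule-binding protein Jakmip1 (4.69), the volume-regulated anion channel subunit Lrrc8c (3.67), the scaffold protein Grip1 (2.57), the actin-binding protein Aif1l (3.15), the enzyme Enpp7 (3.36) and the histone gene Hist1h4b (3.39). Other probes of 3 of these genes did not share the size of the difference: that of Lrrc8c gave -0.50, those of Hist1h4b -0.13 and -0.02 and that of RT1-Db1 -1.18. Probes of histone genes can take up RNA of near-identical copies. The calls of Aif1l, Jakmip1 and Htr1d were lost without any 1 of the 6 arrays, that of Tlr2 without any but Cl19 replicate 2, that of Gys2 without any but Cl19 replicate 1, that of Enpp7 without any but Cl19 replicate 1 or 3c3 replicate 2 and that of Hist1h4b without Cl19 replicate 2. With the normexp correction, 7 of the 12 genes found in Cl19 alone and 9 of the 12 found in 3c3 alone lost the call. The probe sequences of Cd81, Vil1 and the second Prkag2 probe, whose readings are at or near background in 1 line, are given 5′ to 3′ as the array carries them, at chr1:203341891-203342343, plus strand, chr9:73769114-73770845, plus strand and chr4:5644033-5649788, plus strand of rn4.
Cd81: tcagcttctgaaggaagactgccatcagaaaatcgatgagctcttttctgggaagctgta
Vil1: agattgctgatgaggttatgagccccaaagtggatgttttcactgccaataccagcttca
Prkag2: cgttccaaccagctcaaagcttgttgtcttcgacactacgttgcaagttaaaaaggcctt

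**Figure D4:**
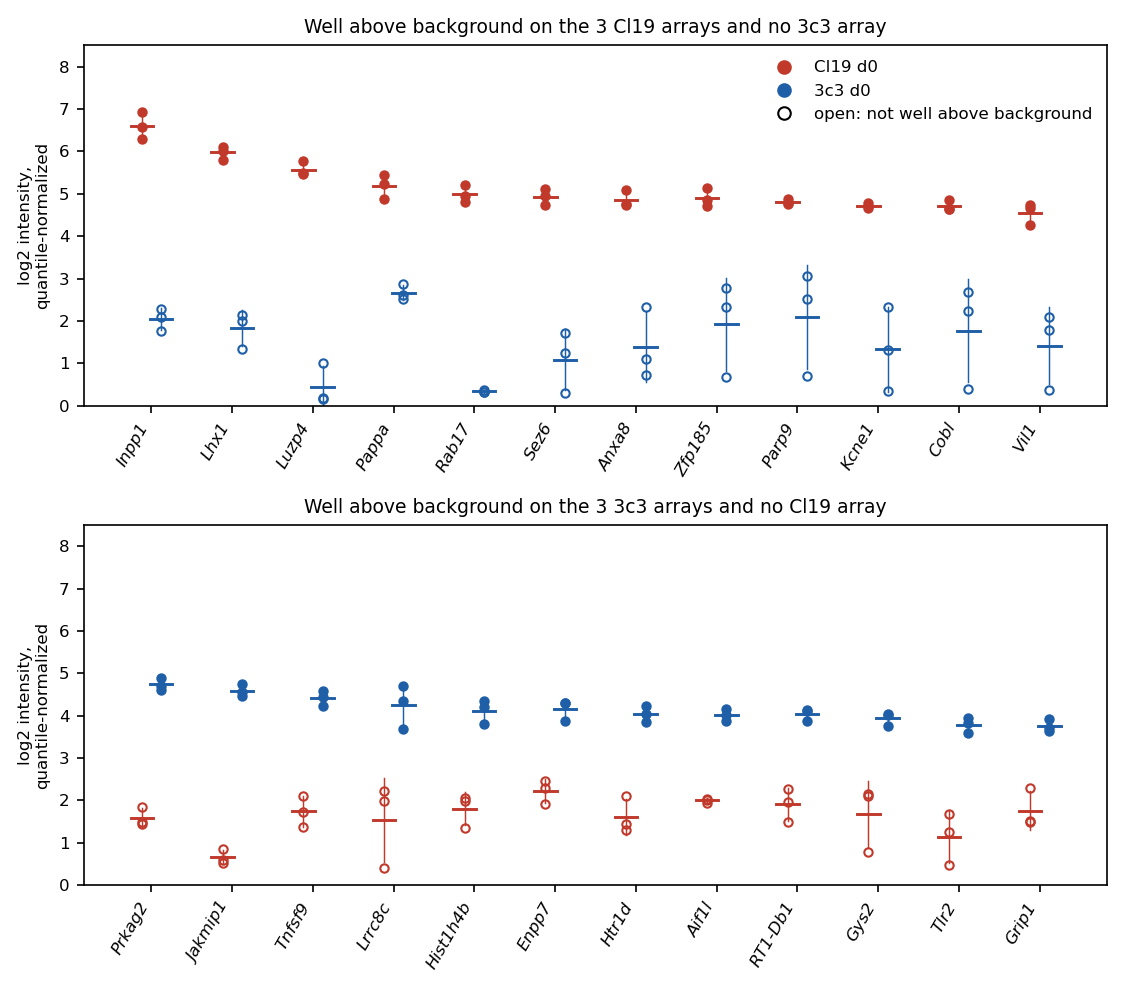
Log2 level on each d0 array (y axis, quantile-normalized) of the 12 genes per direction that were well above background on all arrays of 1 line and none of the other and that passed the test (x axis, ordered by bound), with the mean ± SD (n = 3). Filled points are well above background and open points are not, and the filled points lie above 3 while the open ones go down to 0.16.

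Genes of antigen presentation and of the interferon response were called more often higher than lower in Cl19. Of 40 tested, 11 were called higher and 1 lower, with a median of 0.44, beside 2.69% and 1.28% and a median of -0.03 for all genes tested. Psmb9 and Psmb8 encode subunits of the immunoproteasome, which cuts peptides for display. Psmb9 was 9.88, 9.85 and 10.09 in Cl19 and 7.53, 7.45 and 7.46 in 3c3 (2.46 ± 0.41, adjusted p = 0.0014). Psmb8 was 8.10, 7.85 and 8.29 against 5.65, 5.95 and 5.95 (2.23 ± 0.33, adjusted p = 0.000484). In both, every Cl19 array lay over 1 log2 unit above every 3c3 array, and both calls held under every alternative setting.

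The proteasome activator subunits and the peptide-loading chaperone were also higher in Cl19, by less. Psme1 was 1.05 ± 0.16 and Psme2 1.22 ± 0.17 higher, and Tapbp, tapasin, which loads peptides onto class I molecules, was 10.06, 10.20 and 10.41 against 8.72, 8.33 and 8.65 (1.66 ± 0.16, adjusted p = 1.42e-05). Of 21 RT1 class I and class II genes tested, each by its brightest probe, 2 were higher and 0 lower, with a median of 0.09. RT1-Db1, given above as found in 3c3 alone, was called through a dimmer probe, and its brightest gave -1.18. The 2 higher ones were the nonclassical class I gene RT1-M3-1, at 6.85, 7.09 and 7.48 against 4.27, 4.14 and 4.36 (2.88 ± 0.27, adjusted p = 1.33e-05), and RT1-N3, which was above background in Cl19 alone (at least 1.93-fold). The RT1-N3 call was lost with the normexp correction, and probes of RT1 genes can take up RNA of other RT1 genes.

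Of the interferon-induced genes, Ifi44 was 6.13, 6.11 and 6.61 in Cl19 and 3.31, 3.09 and 1.71 in 3c3, where 2 of 3 arrays were well above background (3.58 ± 0.53, adjusted p = 0.000559). Its second tested probe gave 2.92. The membrane protein Bst2 (tetherin) was 7.38, 6.57 and 7.97 against 3.65, 4.77 and 5.85 (2.55 ± 0.67, adjusted p = 0.0392). Rsad2 (viperin) was 1.94 ± 0.48 higher, Trim21, an antibody receptor of the cytosol, 1.28 ± 0.33, and Tlr3, a sensor of double-stranded RNA, 1.05 ± 0.20. Usp18, which dampens interferon signaling, was well above background in Cl19 alone (at least 2.62-fold). The member that was lower was Tlr2, given above. The calls of Rsad2 and Trim21 were lost without any 1 of the 6 arrays, that of Bst2 without any but 3c3 replicate 3, and that of Tlr3 without the slide of 3c3 replicate 3. Ifi44, Bst2 and Tlr2 are named by the size of their differences, and the other members named here were chosen after their values were seen.

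Promoters of 3 of the called genes are shown, since the list was drawn up around the interferon response, with each match of GAAA, any 2 bases and GAAA, on either strand, in capitals (on the opposite strand it reads TTTC, any 2 bases and TTTC). This pattern is the core of the interferon-stimulated response element. They are the 250 bases before the RefSeq start on GRCr8, at chr2:243303841-243304090, minus strand for Ifi44, chr16:18254968-18255217, minus strand for Bst2 and chr15:33052752-33053001, minus strand for Psme2.
Ifi44: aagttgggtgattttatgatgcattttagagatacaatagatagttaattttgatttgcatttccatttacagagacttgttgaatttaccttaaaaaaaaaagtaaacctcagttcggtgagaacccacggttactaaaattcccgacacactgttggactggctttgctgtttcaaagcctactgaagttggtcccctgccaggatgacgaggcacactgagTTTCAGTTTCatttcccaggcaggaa
Bst2: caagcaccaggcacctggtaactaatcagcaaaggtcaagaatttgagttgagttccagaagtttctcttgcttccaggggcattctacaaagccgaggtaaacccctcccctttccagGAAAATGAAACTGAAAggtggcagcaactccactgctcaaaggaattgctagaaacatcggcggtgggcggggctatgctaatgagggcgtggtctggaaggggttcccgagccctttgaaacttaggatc
Psme2: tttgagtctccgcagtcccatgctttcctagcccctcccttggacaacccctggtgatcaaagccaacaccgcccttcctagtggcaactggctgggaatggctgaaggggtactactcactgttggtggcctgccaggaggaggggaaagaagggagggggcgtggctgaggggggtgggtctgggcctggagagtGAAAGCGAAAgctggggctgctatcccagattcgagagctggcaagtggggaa
In Bst2, 2 overlapping matches merge into 1 run. Of the 11 called genes 10 had a promoter, and 6 of these (60%) held a match, which were Ifi44, Bst2, Rsad2, Tapbp, Trim21 and Psme2, while Psmb9, Psmb8, Psme1 and Tlr3 held none. Among all tested members of the list with a promoter the share was 16 of 33 (48.5%), among the promoters of all genes tested 293 of 10758 (2.72%) and among all promoters 1140 of 33469 (3.41%). A match is a pattern of letters in this window, and binding was not measured.

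Genes of the pathways that the later SMC protocol uses were examined as lists. Of 44 TGF-beta superfamily genes tested, 3 were higher and 1 lower in Cl19, with a median of -0.07. Over all genes tested, 2.69% were higher and 1.28% lower, with a median of -0.03. The counts of this list and of those below stand beside these shares. The receptors Tgfbr1, Tgfbr2 and Tgfbr3 differed by 0.40 ± 0.41, 0.01 ± 0.18 and 0.59 ± 0.35, and none was called. The ligand Bmp6 was 5.45, 5.40 and 5.57 in Cl19 and 3.28, 3.82 and 3.05 in 3c3 (2.09 ± 0.48, adjusted p = 0.0168), with 2 of 3 arrays of 3c3 well above background. Ltbp1, which holds latent TGF-beta in the matrix, was 1.18 ± 0.27 higher and Inha, the inhibin alpha chain, 0.80 ± 0.19. Pmepa1, a feedback inhibitor of TGF-beta signaling, was 6.31, 6.07 and 6.40 against 8.53, 8.09 and 8.49 (-2.11 ± 0.48, adjusted p = 0.0171). Bmp6 and Pmepa1 each lost the call when any array but 3c3 replicate 2 was left out, Ltbp1 without any but Cl19 replicate 1 or 3c3 replicate 3, and Inha without Cl19 replicate 1 or 3 or 3c3 replicate 2.

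Of 6 genes for PDGF ligands and receptors tested, 0 were higher and 1 was lower. This was Pdgfrb, which had no d0 array well above background in either line, so no fold is given for it. Its values were 0.38, 0.33 and 0.85 in Cl19 and 2.71, 2.10 and 2.02 in 3c3, and its call was lost with 4 other ways of scaling or background correction. Pdgfra, at above 12 on all 6 arrays, was the measurable receptor. Smarcd3 (Baf60c), a chromatin remodeling subunit that was used in the study to drive SMC differentiation, was 5.85 ± 0.20 in Cl19 and 6.49 ± 0.18 in 3c3, separate but not called (adjusted p = 0.848). Foxc1, a forkhead factor of cardiovascular development, was 8.59 ± 0.06 against 7.62 ± 0.23 (adjusted p = 0.201). None of 23 smooth muscle contractile genes was called in either direction, and their median was -0.18. Without adjustment, limma's p was under 0.05 for 2 higher and 3 lower ones, and the methods' t-test called 0 after adjustment.

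In WNT signaling, 2 of 37 tested genes were higher and 0 lower, with a median of 0.02. Sfrp5, a secreted antagonist that binds WNT ligands and that visceral endoderm makes, was 7.64, 7.87 and 8.01 in Cl19 and 3.12, 2.50 and 3.57 in 3c3, where 2 of 3 arrays were well above background (4.78 ± 0.84, adjusted p = 0.00229). Its second probe gave 2.27, and the call was lost with the normexp correction. Porcn, the enzyme that adds the lipid which WNT ligands need for secretion, was 1.46 ± 0.32 higher, with its second probe at 0.71 and its call lost without Cl19 replicate 3, 3c3 replicate 2 or 3c3 replicate 3.

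In FGF signaling, 0 of 24 tested genes were higher and 3 lower, with a median of 0.02. The receptor Fgfr2 was 7.21, 7.84 and 7.35 in Cl19 and 9.54, 9.93 and 9.41 in 3c3 (-2.16 ± 0.39, adjusted p = 0.00267). Its other 3 probes gave -1.85 to -0.77. Fgfr1 was 9.31 ± 0.25 against 10.28 ± 0.13 (-0.98 ± 0.26, adjusted p = 0.0461), and its call was lost without any 1 of the 6 arrays and under the replicate block. Fgfr1 and Fgfr2 were thus lower on every Cl19 array than on any 3c3 array. The third, Fgf13, which acts inside the cell, was not well above background on any of the 6 arrays.

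Of 17 pluripotency and germline factors tested, 1 was called higher and 1 lower, but 3 lay above 0 and 14 below, with a median of -0.51 against -0.03 for all genes tested. At limma's unadjusted p under 0.05, 1 was higher and 6 were lower. The summed linear intensity of the 22 on the array was 59412 to 62428 in Cl19 and 94113 to 104062 in 3c3, and without Lin28a, which gave the most signal, 26022 to 30199 and 51006 to 59703. Kit, the stem cell factor receptor, was 5.15, 5.31 and 5.45 in Cl19 and 3.71, 4.05 and 3.86 in 3c3 (1.43 ± 0.20, adjusted p = 0.000379), while its second probe gave 0.30. Dnmt3l, a cofactor of de novo DNA methylation, was 13.09, 13.36 and 12.92 against 14.22, 14.92 and 14.25 (-1.34 ± 0.33, adjusted p = 0.0269), with a call lost without any array but 3c3 replicate 1. Dnmt3l was also the only called gene among 23 for DNA methylation and Polycomb proteins, whose median was -0.25. By the methods' t-test after adjustment, which uses the spread of the 6 arrays alone, 1 pluripotency factor was higher and 5 were lower. Nanog and Xist were not analysed here.

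Among 19 factors of primitive and visceral endoderm, Lhx1 was the 1 higher gene and Cited1, a transcriptional coactivator, the 1 lower gene (-1.16 ± 0.30), and the median was -0.02. Of 25 endoderm carrier and uptake proteins, 3 were higher and 1 lower, with a median of 0.19. These secreted products of yolk sac and liver were Apoa2, at 7.10 ± 0.33 against 4.87 ± 0.09, prothrombin (F2), at 8.0 ± 0.40 against 6.21 ± 0.23, and Apoa1, above background in Cl19 alone (at least 1.65-fold), against the fibrinogen chain Fgg at 5.04 ± 0.23 and 6.16 ± 0.15. Apoa2 and Fgg lost the call without any 1 of the 6 arrays, Cited1 without any but 3c3 replicate 1, F2 without Cl19 replicate 3 and Apoa1 without Cl19 replicate 3 or 3c3 replicate 1 or 3. Of 18 Hox genes tested, 1 was lower, Hoxa4, which was above background on 2 of 3 arrays of 3c3 and on none of Cl19 and lost its call without any array but 3c3 replicate 3.

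Basement membrane genes were called only higher in Cl19, and epithelial junction genes in both directions. Of 22 laminin and other basement membrane genes, 2 were higher and 0 lower, with a median of 0.22. The laminin chain Lama4 was 5.86, 5.77 and 6.58 in Cl19 and 4.28, 3.41 and 2.69 in 3c3 (2.61 ± 0.47, adjusted p = 0.00305), with 2 of 3 arrays of 3c3 above background and a call lost without the slide of 3c3 replicate 3. Nid1, nidogen, which links laminin to type IV collagen, was 9.32 ± 0.26 against 7.21 ± 0.22 (adjusted p = 0.0342), with a call lost without any 1 of the 6 arrays and under the replicate block.

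Of 37 epithelial junction genes, 3 were higher and 3 lower, with a median of 0.03. The protease inhibitor Spint1 was 10.25 ± 0.12 in Cl19 and 8.44 ± 0.23 in 3c3 (adjusted p = 0.00918), and the desmosome proteins Pkp2 and Pkp3 were 1.07 ± 0.27 and 0.78 ± 0.16 higher. The tight junction genes went the other way. Cldn4 was 8.03, 7.45 and 7.58 against 9.72, 8.86 and 9.29 (-1.60 ± 0.28, adjusted p = 0.00206), its second probe gave -1.67, and Tjp3 and Cldn6 were -1.35 ± 0.36 and -0.87 ± 0.21 lower. Pkp2 and Tjp3 lost their calls without any 1 of the 6 arrays, Cldn6 without Cl19 replicate 1 or 2 or 3c3 replicate 1 or 3, and Tjp3 also under the replicate block.

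Among enzymes of glutathione, aldehyde and xenobiotic metabolism, 6 of 45 tested were higher and 0 lower, with a median of 0.17. The metallothionein Mt1, which binds zinc and copper, was 9.35, 9.43 and 9.63 in Cl19 and 7.74, 6.76 and 7.25 in 3c3 (2.22 ± 0.40, adjusted p = 0.00281), though its second probe gave 0.00. Mt2A was 1.49 ± 0.36 higher. The glutathione transferases Gsta2 and Mgst3 were 1.61 ± 0.35 and 1.37 ± 0.20 higher, and the peroxidase Gpx1 0.64 ± 0.14. The call of Mt2A was lost without any array but 3c3 replicate 1, that of Gsta2 without Cl19 replicate 2 or 3 or 3c3 replicate 3, and that of Gpx1 without Cl19 replicate 2 or 3c3 replicate 1. Cyp1b1, above background in Cl19 alone, had an adjusted p of 0.0498 and kept it under 0.05 in 2 of 15 alternative settings.

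Of 33 CDK inhibitors, D cyclins and p53 targets, 2 were higher and 0 lower, with a median of 0.05. Beside Cdkn1c this was cyclin D1 (Ccnd1), which drives entry into S phase. It was 11.37, 11.46 and 11.83 in Cl19 and 10.07, 9.75 and 10.01 in 3c3 (1.61 ± 0.35, adjusted p = 0.0114), with its second probe at 1.59. Its call was lost without Cl19 replicate 3 or 3c3 replicate 2. Of 40 glycolysis and hypoxia genes only Adm, adrenomedullin, a vasodilator peptide, was called, at 8.91 ± 0.12 against 6.93 ± 0.47 (adjusted p = 0.000251). None of 27 chemokines, cytokines and their receptors and none of 6 sex-informative genes was called by limma or by the methods' t-test after adjustment. Without adjustment, limma's p was under 0.05 for 3 higher and 1 lower of the former and for 0 higher and 1 lower of the latter.

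Markers of other cell types that bone marrow cultures can hold were examined as whole lists, since in bulk RNA fewer cells of a type and less RNA per cell cannot be told apart. Of 30 blood cell genes on the array, 13 were well above background on all arrays of each line and 15 were on none of the 6. Those on none included Ptprc, Cd34, Spi1, Itgam, Hbb and Cd3e. Those well above background on at least 1 array included Csf1r, Cd68, Cd14, Tyrobp, Gata1 and Klf1. The summed linear intensity of the 30 was 2122 to 2537 in Cl19 and 2710 to 3796 in 3c3. None of 18 tested was called (1 higher and 1 lower at limma's unadjusted p under 0.05, and 0 and 1 by the methods' t-test after adjustment). Of 20 endothelial genes, 11 were well above background on all Cl19 arrays and 10 on all 3c3 arrays, with sums of 2745 to 3040 and 1763 to 2180. Of 14 tested 2 were higher, with a median of 0.46. The 2 were Flt1, a VEGF receptor, at 8.44 ± 0.07 against 6.58 ± 0.39 (adjusted p = 0.000396) with a second probe at 0.00, and the vesicle protein Plvap, which was above background on 1 of 3 arrays of 3c3 and lost its call without any array but 3c3 replicate 1.

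Of 29 mesenchymal stromal genes, 9 were well above background on all Cl19 arrays and 8 on all 3c3 arrays. The sums were 14956 to 16297 and 10548 to 12146, and of 27 tested, 1 was higher (Col5a1, 1.07 ± 0.25, with a call lost without any array but 3c3 replicate 3) and 1 lower (Pdgfrb), with a median of -0.02. Of 17 trophoblast-type genes, 8 were well above background in each line, with sums of 21820 to 22535 and 11748 to 12615, and of 13 tested 1 was higher, with a median of -0.34. That 1 was Phlda2. A sum is carried by its brightest probes. Without Phlda2 the trophoblast sums were 4076 to 5070 in Cl19 and 6089 to 7116 in 3c3, and thus the other way round, and so were the blood cell sums without Runx1, at 1350 to 1563 and 1073 to 1302. Without Vim the mesenchymal sums overlapped, at 1947 to 2546 and 1326 to 1971, and without Egfl7 the endothelial sums stayed apart, at 821 to 945 and 417 to 608. The part of other cell types in the differences above was not tested.

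The d0 differences were followed over the SMC differentiation of both lines. On d2 the array labeled Cl19 d2 replicate 1 was left out of the values below, and with it 2 probes were higher (0.00818%) and 0 lower (0%). Without it, 135 of the 488 probes higher on d0 were called higher on d2 and 85 of the 263 lower, out of 1288 and 1113 called in all, and 17 of the 751 were called in the opposite direction. On d4, 147 of the 488 were called higher and 134 lower, and 82 of the 263 were called lower and 65 higher, while 13.2% and 13.5% of all probes were called higher and lower. On d6, 117 of the 488 were called higher and 162 lower, and 98 of the 263 lower and 58 higher, against 14.5% and 14.6% of all probes. The change of the line difference from d0 to d6 itself passed the test for 310 of the 488 and 131 of the 263, and for 4263 (17.4%) of all probes. The comparisons of different days use different arrays but share the quantile normalization and the estimate of the spread. All days of a replicate also lay on 1 slide, and all days of a line were scanned on 1 day. The later days are thus not independent repeats of d0. The change from d0 also rests on the d0 values that chose these probes.

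Cd81, Cdkn1c, Tssc4 and Igf2r stayed higher in Cl19 on all days. Cd81 differed by 4.60 on d2, 4.74 on d4 and 4.22 on d6 (adjusted p at most 0.00045). Tssc4 differed by 4.14, 3.26 and 3.15, and Cdkn1c, by its brightest probe, by 3.32, 2.90 and 2.99. Igf2r differed by 3.11, 2.00 and 1.60. Their neighbours Phlda2 and Slc22a18 did not keep the difference: Phlda2 was 0.25, 0.34 and 0.35 higher, none of them called, and Slc22a18 was 0.71 higher on d2 (adjusted p = 0.0379) and 0.28 and -0.55 on d4 and d6, not called. The change from d0 to d6 passed the test for Phlda2 (-1.32, adjusted p = 0.0194) and for Slc22a18 (-1.79, adjusted p = 0.0002), and for Cdkn1c and Cd81 it was -2.32 (adjusted p = 0.0669) and -1.64 (adjusted p = 0.405).

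Of the antigen presentation and interferon genes called higher on d0, some lay on the other side on d4 and d6 and others did not. Psmb8 was -0.75 on d2, -3.97 on d4 and -3.90 on d6, Psmb9 -0.71, -3.11 and -2.62, and Tapbp -0.20, -0.78 and -1.29, so all 3 were lower in Cl19 on d4 and d6 (adjusted p at most 0.001). Ifi44 was 1.44, -2.71 and -4.29, Rsad2 1.80, -2.12 and -3.53, and Tlr3 0.10, -2.54 and -3.32. Psme1 was -0.40 on d4, not called, and -0.69 on d6 (adjusted p = 0.00259), and RT1-M3-1 was -0.39 and -0.50, neither called. Psme2 was 0.16 and 0.31, Bst2 0.41 and 0.68 and Trim21 -0.16 and -0.77, and none of these was called. For Psmb8, Psmb9, Tapbp and Ifi44 the change from d0 to d6 passed the test, at -6.13, -5.08, -2.95 and -7.87 log2 units (adjusted p at most 4.72e-06). The plot of the differences by day sets these beside the genes of the Cdkn1c neighbourhood.

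**Figure D5:**
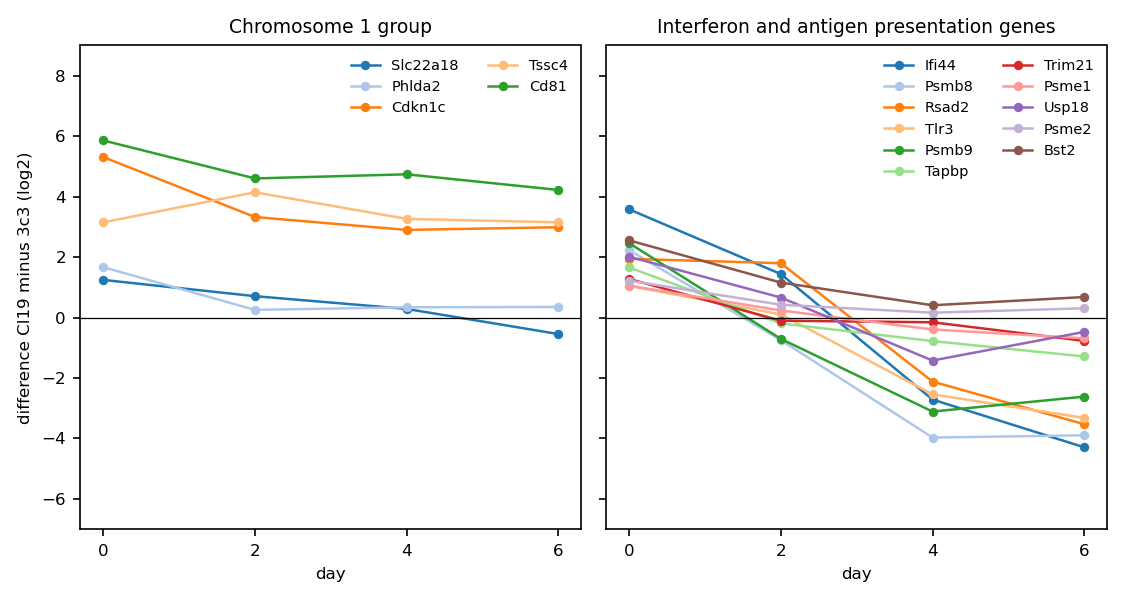
Difference between the lines (y axis, mean log2 Cl19 minus 3c3) on d0, d2, d4 and d6 (x axis) for genes of the Cdkn1c neighbourhood and for antigen presentation and interferon genes, each line 1 gene. The d2 points leave out the array labeled Cl19 d2 replicate 1 and no error is drawn. Cd81, Tssc4 and Cdkn1c stay above 2 on all days, and Psmb8, Psmb9, Tapbp, Ifi44, Rsad2 and Tlr3 lie below 0 on d4 and d6.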

How the data were processed

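RNA of rMAPC lines Cl19 and 3c3 on d0 (3 arrays each) was analysed within the 26 arrays of the series, with line and day taken from the labels. The authors deposited, for each array, the scanner intensity from Agilent Feature Extraction 10.1.1.1 (gProcessedSignal), which that software had corrected for background, and its quality calls for each feature as other columns. The authors also deposited a table of log2 values, which equals the log2 of the intensity and so does not hold the quantile normalization their methods describe. That step was repeated here.

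Quantile normalization was run on the log2 intensities of 43379 gene features of all 26 arrays, features that the scanner software marked as outliers were dropped, and features of 1 probe were averaged (263 of 41012 probes). Probes were named through NCBI gene number, accession or gene name, which gave 22574 probes a symbol, and coordinates are those of the array on rn4. A probe was tested if all arrays of some group had it well above background (24442 probes). Quantile normalization removes a change shared by most genes, and dim probes vary widely on the log2 scale. Cl19 was compared with 3c3 on d0 in 1 limma 3.58.1 fit (R 4.3.3) over all 26 arrays and 9 groups, two-sided, with Benjamini-Hochberg adjustment over all probes tested and a threshold of 0.05. A gene in a list was measured by its brightest probe over the 26 arrays. The fit was run on simulated data with 200 changed probes. The noise was drawn independently for each array, so slide and scan-day effects could not be tested this way. Tables and figures used Python 3.11.15. The number of arrays, 3 a line, limits the precision.

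Named genes were the 12 per direction with the largest difference among named probes with all 6 arrays well above background, called and not overlapping, the 12 per direction with the largest bound among called probes found in 1 line alone, the 2 called members per direction of each list with the largest difference, and a set of lineage and TGF-beta genes whatever their values. The members, lists and rules were chosen with earlier results of these data known. Some genes that these rules pick are not reported here.

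Both lines carry replicate numbers 1 to 3 in the labels. On d0, deviations from the line means of same-numbered arrays correlated at 0.10, 0.65 and 0.28, each over 0.1, and those of different numbers at -0.48 to 0.30. By the same-number values the numbers may pair the samples, although 2 pairs of different numbers correlated above 0.25 and no label states a pairing. The main fit does not use such a pairing, and the fit with the replicate block does. Alternatives were the replicate block, the slide as a random block, the 6 arrays alone, other scaling, background correction and filters, the t-test that the study's methods name for comparisons in general, though not for the arrays, and leaving out each array.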

Additional observations from a re-analysis of the deposited data

Results flagged for a closer look

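For 18 named probes that were called on d0, the difference between the lines was called in the opposite direction on d4 and on d6, and the test of the change of that difference from d0 passed on both days. Values are the line difference (Cl19 minus 3c3, log2) on d6 minus that on d0, with 3 arrays per line and day, and each rests in part on the d0 values by which the gene was named.

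Of the genes higher in Cl19 on d0, the largest change was that of the water channel Aqp8, at -8.64, from 4.41 on d0 to -4.24 on d6. Among antigen presentation and interferon genes, Ifi44 changed by -7.87, the immunoproteasome subunits Psmb8 by -6.13 and Psmb9 by -5.08, Rsad2 by -5.47, Tlr3 by -4.37 and Tapbp by -2.95. The glutathione transferase Gsta2 changed by -5.91, cyclin D1 (Ccnd1) by -4.48, the ligand Bmp6 by -4.15 and the VEGF receptor Flt1 by -3.72.

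Of those lower in Cl19 on d0, the kinase Sik1 changed by 6.29, the RNA-binding protein Khdrbs3 by 5.11, the TGF-beta feedback inhibitor Pmepa1 by 4.14 and the coactivator Cited1 by 2.12. The fitted changes were 7.99 for Jakmip1, 5.17 for Aif1l and 3.57 for Fgf13, but for Jakmip1 and Aif1l no Cl19 array of d0, and for Fgf13 no d0 array of either line, was well above background, so that these 3 changes have no exact size.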

How the results depend on the processing

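Line and scan day cannot be told apart, and each line is 1 clone. Against 488 probes higher and 263 lower, the fit of the 6 d0 arrays alone called 866 and 581, the methods' t-test without adjustment 2205 and 2062, a test against a 2-fold change (treat) 24 and 5, and the fit without the slide of 3c3 replicate 3, chosen after seeing the data, 235 and 92. With the replicate block 587 probes were higher and 397 lower, and without the array labeled Cl19 d2 replicate 1, 634 and 378. Leaving out 1 d0 array gave 249 to 368 higher and 115 to 178 lower. The median difference over all probes was 0.019 in the authors' log2 table and -0.062 with a floor on dim values. Probes found in Cl19 alone were 43 by the positive-and-significant call, 42 at 2-fold past the bound with the adjusted p, and 204 to 382 without 1 array. Those found in 3c3 alone were 8, 20 and 35 to 85. Of 108 named and called probes, 45 were called under all 15 alternatives and 0 changed sign. Calls were lost for 35 with normexp, 47 without the slide of 3c3 replicate 3, 27 to 36 without 1 array, 14 with the floor, 11 with the slide as a block, 3 with the replicate block and 0 without the array labeled Cl19 d2 replicate 1. The causes of these changes were not tested.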

Other observations

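The probe TC605130, which has no gene symbol and was chosen after its values were seen, lies at chr8:109350877-109350935 of rn4 on the minus strand. It was 6.68, 6.87 and 7.39 in Cl19 on d0 and 0.92, 2.06 and 0.28 in 3c3, where it was not well above background on any array, so that it was at least 19.8-fold higher in Cl19 (adjusted p = 0.000191).

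Over all days, and leaving out the array labeled Cl19 d2 replicate 1, 6 probes were well above background on all 11 Cl19 arrays and on none of 12 3c3 arrays, and 0 probes the other way. They were TC605130, the guanine nucleotide exchange factor Mcf2l, the unnamed probe TC597117 within 1 kb of it on chromosome 16, Ttc39b, the unnamed probe TC580834 on the same stretch of chromosome 5 and Zfp185 on the X chromosome. Zfp185 ran from 4.70 to 5.59 with a median of 5.14 on the Cl19 arrays and from 0.42 to 2.77 on the 3c3 arrays. On the array labeled Cl19 d2 replicate 1, none of the 6 was well above background, and Zfp185 was at 2.07. The days of a replicate shared a slide, and those of a line a scan day, so the arrays are not independent repeats.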
